A study of Drosophila melanogaster with 3 samples.

Results

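Among the strong peaks of pdm3-GFP in replicate 2, 1314 overlapped no strong peak of replicate 1 and none of replicate 3. They are 1314 of the 30000 candidate peaks listed for replicate 2, and of 90000 over the 3 replicates. They were chosen from the peak lists themselves: each replicate's candidates were ordered by the authors' signal value, as many of the highest rows were kept as the authors' list of reproducible peaks holds, and an overlap of 1 bp counted as shared. The same rule gave 816 peaks found only in replicate 1 and 807 found only in replicate 3. As shares of the kept rows these are 16.1% in replicate 2, 10% in replicate 1 and 9.88% in replicate 3, and since the rule fixed these shares they are a description with no test. The libraries are 3 biological replicates of 1 group: white prepupae, the immobile stage at the start of metamorphosis, taken whole and of mixed sex from a Drosophila melanogaster line that stably expresses pdm3 with GFP at its C-terminus. All 3 carry this fusion and come from 1 donor line, and there is no second genotype, stage or treatment. Sonication brought the chromatin to between 200 and 800 bp, and an anti-GFP antibody pulled it down. Whole animals mix many cell types, so a peak cannot be placed in any of them. Peak lists carry no read counts. Library depth is therefore unknown, and the control was not analysed here.

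pdm3 is a POU-homeodomain transcription factor, a family whose members bind DNA through a POU-specific domain and a homeodomain and recognise an octamer and its half-sites. It is known for its part in the specification and wiring of olfactory neurons. A ChIP-seq peak is a place where immunoprecipitated fragments pile up over the control, and a peak near the end of a ranked list may stand in one replicate and miss the rank limit in another. GAGA factor, encoded by Trl, binds runs of alternating G and A and opens chromatin at many fly promoters and Polycomb response elements. CLAMP, a zinc-finger protein of the dosage compensation system, also binds such runs, and Combgap binds CA repeats.

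The sequence around the summits is what set the 1314 peaks beside the other sets most visibly. As examples, 8 windows that reach 100 bp to each side of a summit are printed. They are read from the plus strand of the RefSeq dm6 sequence and printed in lower case, with capitals for GAGAG and CACACACA and their reverse complements, CTCTC and TGTGTGTG. The windows at corto, ttk and Mob2 belong to the highest members with GAGAGAG in the window, and those at Tgi and mys to the highest with CACACACA in it. The window at hth is that of the highest member in that gene. Windows that touch a UTR were passed over. The last pair are the highest peaks found only in replicates 1 and 3 under that condition. They were chosen by rank with no word required, so they are no like contrast to windows chosen for a word. Members chosen in this way, in Wwox and near how, ranked 569 and 1251. Their windows had GC contents of 34.8 and 38.8% and neither word in capitals.
corto (chr3R:5087935-5088135): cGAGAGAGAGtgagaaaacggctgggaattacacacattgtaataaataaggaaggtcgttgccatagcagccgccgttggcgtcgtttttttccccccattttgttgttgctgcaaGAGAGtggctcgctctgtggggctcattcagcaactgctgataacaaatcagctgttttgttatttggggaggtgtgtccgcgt
ttk (chr3R:31713375-31713575): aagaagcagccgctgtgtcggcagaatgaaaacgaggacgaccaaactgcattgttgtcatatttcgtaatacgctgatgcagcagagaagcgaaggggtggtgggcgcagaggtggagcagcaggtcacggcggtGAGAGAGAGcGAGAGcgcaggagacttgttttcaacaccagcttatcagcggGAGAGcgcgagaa
Mob2 (chr3L:11553316-11553516): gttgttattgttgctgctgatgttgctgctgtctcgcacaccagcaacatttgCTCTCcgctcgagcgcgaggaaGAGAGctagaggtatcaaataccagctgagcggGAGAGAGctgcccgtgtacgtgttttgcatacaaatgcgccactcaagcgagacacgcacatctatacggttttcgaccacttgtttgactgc
Tgi (chr3L:13500005-13500205): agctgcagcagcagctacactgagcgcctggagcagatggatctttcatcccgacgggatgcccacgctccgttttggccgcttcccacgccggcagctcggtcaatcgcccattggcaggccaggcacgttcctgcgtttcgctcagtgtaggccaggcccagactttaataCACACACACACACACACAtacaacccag
mys (chrX:8063260-8063460): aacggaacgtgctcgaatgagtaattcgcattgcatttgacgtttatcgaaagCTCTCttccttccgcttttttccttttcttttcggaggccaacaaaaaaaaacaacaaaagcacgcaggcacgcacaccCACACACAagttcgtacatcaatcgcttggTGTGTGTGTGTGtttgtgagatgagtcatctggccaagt
hth (chr3R:10616911-10617111): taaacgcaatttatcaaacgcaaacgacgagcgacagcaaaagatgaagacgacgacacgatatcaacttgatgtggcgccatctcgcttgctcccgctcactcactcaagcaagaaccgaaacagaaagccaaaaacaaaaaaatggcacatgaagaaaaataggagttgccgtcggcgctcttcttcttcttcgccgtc
CG7120, replicate 1 (chr3L:8399171-8399371): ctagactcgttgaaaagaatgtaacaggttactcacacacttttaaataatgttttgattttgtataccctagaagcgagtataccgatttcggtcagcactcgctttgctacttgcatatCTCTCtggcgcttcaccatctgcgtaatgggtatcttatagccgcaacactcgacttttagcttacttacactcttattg
Cdc16, replicate 3 (chr3R:23280987-23281187): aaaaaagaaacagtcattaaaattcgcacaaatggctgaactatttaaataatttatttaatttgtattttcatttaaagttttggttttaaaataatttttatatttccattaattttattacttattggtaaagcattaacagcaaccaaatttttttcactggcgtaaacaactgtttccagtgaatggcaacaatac

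The corto window lies in intergenic sequence 963 bp from the start site of corto, which encodes a chromatin protein that interacts with Polycomb and trithorax group products. Its GC content was 48.8%, its rank was 2615 in replicate 2, and the overlapping candidates ranked 28935 in replicate 1 and 16031 in replicate 3. The ttk window, 392 bp from a start site of that BTB zinc-finger repressor gene, had a GC content of 55.2% and ranked 2838, against 19136 and 26780 in replicates 1 and 3. At Mob2, which encodes a kinase adaptor of the Mob family, the window lay 304 bp from a start site, with a GC content of 51.7% and ranks of 2892, 13300 and 11480 in replicates 2, 1 and 3. The Tgi window, inside the gene of a cofactor of the Yorkie partner Scalloped, ranked 1256 in replicate 2 and had no overlapping candidate in either other list. That member spans only 98 bp (3L 13500048 to 13500145), and the CA run marked in its window lies past the end of the peak. The mys window, in an intron of the gene of the integrin beta PS subunit, ranked 1897 and also had no overlapping candidate. The hth window has neither word in capitals and a GC content of 46.8%. The window at CG7120 held a single short word and had a GC content of 40.3%, near the members' median of 40.5%. The window near Cdc16, which encodes a subunit of the anaphase-promoting complex, had a GC content of 23.9%.

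Most members stood low in the kept rows. The median signal value of members was 31.6, with 26.4 the lowest and 196.6 the highest, and their best rank in replicate 2 was 369, with a median of 6661. Of the 1314, 98 ranked in the first 4000 rows, 351 from there to 6000 and 865 beyond 6000. At the rank limit, the last kept member lay 59 bp from a start site of the ribosomal protein gene RpS9, with a signal value of 26.4063, and the first row left out that also overlapped no kept row of the other replicates lay near CG9106 with 26.4016. The 4 members above RpS9 lay near REPTOR, Pp2B-14D, KrT95D and CenG1A at 26.4220 to 26.4245, and the next 4 rows outside near smog, Unc-76, Cpr97Ea and for at 26.3828 to 26.3967. The lowest signal value kept was 32.6 in replicate 1 and 40.5 in replicate 3. The lowest deposited −log10 q-value among kept rows was 1.62 in replicate 2, against 2.71 in replicate 1 and 2.72 in replicate 3.

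Being found only in replicate 2 rarely meant that the other libraries had no candidate at that place. An overlapping row stood further down the list of replicate 1 for 1027 members (78.2%) and further down that of replicate 3 for 1035 (78.8%). The median rank of these rows was 12363 in replicate 1 and 11950 in replicate 3. Both lists held a row for 903 members (68.7%), the list of replicate 1 alone for 124, that of replicate 3 alone for 132, and neither list for 155 (11.8%, 95% Wilson interval 10.2 to 13.7%, which here and below covers counting error over peaks only). Of the peaks found only in replicate 1, 7.23% were in neither other list, and of those found only in replicate 3, 21.6%. A kept summit of replicate 1 lay within 500 bp of 30 members and a kept summit of replicate 3 within 500 bp of 33.

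**Figure D1:**
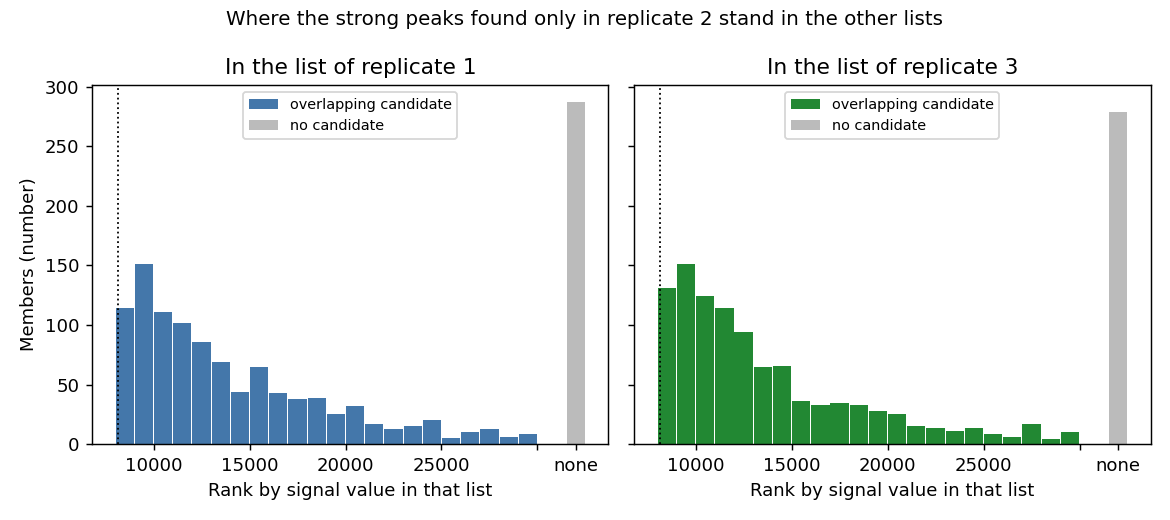
Ranks by signal value of the candidates that overlap the 1314 strong peaks found only in replicate 2, in the list of replicate 1 (left) and of replicate 3 (right), in bins of 1000 ranks, with members that overlap no candidate as the grey bar. The dotted line marks the last kept rank; the fullest bins lie near it, and 287 and 279 members have no candidate in replicates 1 and 3.

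The pooled candidate list, called on all replicates together, held an overlapping row for 1112 members (84.6%), at a median rank of 9640. The authors' list of reproducible peaks, called optimal here, overlapped 246 members (18.7%), against 35.2% of the set of replicate 1 and 31.8% of the set of replicate 3. Replicate 2 contributed to both of these lists, so they are no independent check.

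The 10 highest members were a mixed group, and none of them overlapped a candidate of replicate 1 or replicate 3. The highest lay at 2L 2147335 to 2147562, 82 bp from a start site of Tbcd, a tubulin folding cofactor, with a signal value of 196.6 at rank 369, and it was not in the pooled list either. The next was in an intron of Wwox (2L 8001721 to 8001880, rank 569) and the following in an intron of EDTP (2R 17436933 to 17437160, rank 673). Their summits lay 138 and 206 bp from a kept summit of replicate 1 and 147 and 195 bp from one of replicate 3. Both overlapped an optimal peak. The intron peak of tou, which encodes a chromatin remodelling subunit (2R 11614360 to 11614470, rank 1528), also overlapped one and had kept summits 354 and 499 bp away. These 3 peaks therefore sat beside strong peaks of the other libraries. The remaining members of the 10 had no kept summit within 500 bp in either list. They lay near start sites of E(var)3-9, tay, RpS18 and Ns4, in intergenic sequence near how, and in Tgi. Of the 10, 6 were narrower than the 390 bp of nearly all members.

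The GC content around the summits was higher in the 1314 members than in either matching set. The median over the window was 40.5% (95% interval of the median over peaks, 39.8 to 41.3%), against 33.8% (33.3 to 34.3%) in the set of replicate 1 and 34.3% (33.3 to 34.8%) in that of replicate 3. The middle 50% of members ran from 34.8 to 47.8%. A GC content of 45% or more was found at 446 members (33.9%), at 4.90% of the set of replicate 1 and at 7.06% of that of replicate 3. A GC content under 35% was found at 25.9% of members, against 58.5 and 56.5%.

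The whole list of replicate 2 moved with this. All kept rows had a median of 35.8% in replicate 2, 33.8% in replicate 1 and 34.3% in replicate 3, and the 21836 rows below the kept ones had medians of 40.3, 37.3 and 37.3%. The part of this difference between libraries in the members' GC content was not tested. Among peaks kept in all 3 replicates the difference between lists was small, with medians of 34.8, 34.3 and 34.3% in the rows of replicates 2, 1 and 3. The mirror set, 1043 peaks kept in replicates 1 and 3 but not in 2, had the lowest median, 32.8%. Peaks missing from 1 other list stood between, with 37.8% in the 529 kept in replicates 2 and 3 but not 1, and 35.3% in the 528 kept in replicates 1 and 2 but not 3. The 529 were read at summits of replicate 2, and the 528 and the 1043 at summits of replicate 1, so these medians are not fully alike. The lists chosen by the same ranks define these sets, so these values describe them and test nothing.

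**Figure D2:**
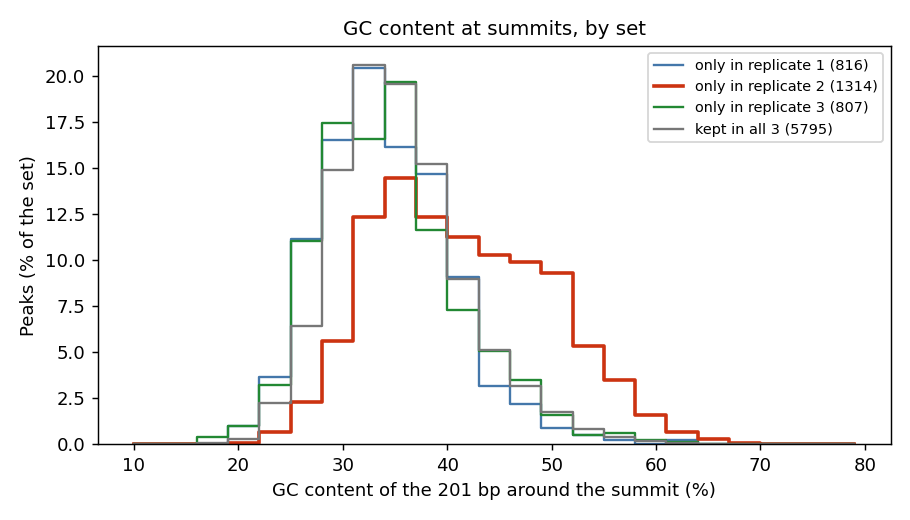
Distribution of GC content in the window of 100 bp to each side of the summit, in bins of 3 percentage points, as a share of each set: peaks found only in replicate 1 (816), 2 (1314) or 3 (807), and peaks kept in all 3 (5795 rows of replicate 2). The curve of replicate 2 extends to the right, with 33.9% of its peaks at 45% GC or more, against 4.90 and 7.06% in the sets of replicates 1 and 3.

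The difference was found near start sites, in introns and in intergenic sequence. Within 500 bp of a start site the median GC content of members was 45.3%, in introns 39.3% and in intergenic sequence 38.8%. In the set of replicate 1 the same classes had medians of 34.3, 33.8 and 33.3%, and in that of replicate 3 medians of 33.8, 34.3 and 33.8%. The difference was also found at the 3 levels of rank compared, with 42.8% among members of ranks up to 4000, 42.3% from there to 6000 and 39.8% beyond. The same levels had 33.1, 33.3 and 33.8% in the set of replicate 1 and 34.3, 33.3 and 34.3% in that of replicate 3. The 155 members in neither other list had a median of 42.3%, the 256 in 1 other list had 44.5% and the 903 that stood in both had 39.8%.

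Runs of GA were more frequent in the members. GAGAG, the short word recognised by GAGA factor, stood on either strand in 32.5% of member windows, against 20.1 and 19.6% in the sets of replicates 1 and 3, 25.3% of all kept rows of replicate 2 and 23.4% of peaks kept in all 3. GAGAGAG, every copy of which also holds GAGAG, stood in 131 members (9.97%, 8.5 to 11.7%), against 2.82 and 2.23% in the other sets and 5.19% of all kept rows of replicate 2. CA repeats were also most frequent in the members. CACACACA stood in 113 members (8.60%, 7.2 to 10.2%), against 3.43 and 2.85% in the other sets, 4.20% of the kept rows and 3.00% of peaks kept in all 3. One or the other of these long words was held by 219 members (16.7%), against 6.00 and 4.83% of the sets of replicates 1 and 3. A match is a stretch of letters and not a measured site of any factor.

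The GA run went with GC content. Among members under 30% GC, 0 of 83 held GAGAGAG, a count that allows up to 3.61%, and the share was 3.11% from 30 to 35%, 3.82% from 35 to 40%, 9.17% from 40 to 45% and 20.2% at 45% or more (90 of 446, 16.7 to 24.2%). In that highest band the other sets held few peaks, with GAGAGAG in 3 of 40 in replicate 1 and 3 of 57 in replicate 3, while peaks kept in all 3 had it in 60 of 458 (13.1%, 10.3 to 16.5%). CACACACA at 45% GC or more stood in 15.9% of members (12.8 to 19.6%), in 6 of 40 and 6 of 57 peaks of the other sets and in 10.3% of peaks kept in all 3 (7.81 to 13.4%). These last shares are from the rows of replicate 2. In the rows of replicate 3 kept in all 3, GAGAGAG stood in 48 of 369 (13.0%, 9.95 to 16.8%), an interval that overlaps that of the members. By position, GAGAGAG stood in 14.99% of members near start sites, 8.07% of those in introns and 5.61% of intergenic ones.

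The words nearest to pdm3's own family were not among those that were more frequent. The octamer ATGCAAAT stood in 2.28% of members, against 3.19 and 3.84% in the sets of replicates 1 and 3, and its half-site ATGCAA in 17.0%, against 21.0 and 19.3%. The homeodomain palindrome TAATTA stood in 11.9% of members and in 19.4 and 18.0% of the other sets. Within bands of GC content the order of the sets varied. Under 30% GC TAATTA stood in 28.9% of members, against 30.3% in replicate 1 and 27.8% in replicate 3. In the same order the shares were 16.7, 22.7 and 19.6% from 30 to 35% GC, and 12.8, 11.2 and 13.1% from 35 to 40%. They were 14.2, 6.45 and 8.33% from 40 to 45%, and 4.26, 10 and 7.02% at 45% or more. In that last band the other sets held 40 and 57 peaks. GCCAT, the core of sites of the Polycomb recruiter Pho, stood in 29.8%, against 25% in the set of replicate 1 and 26.0% in that of replicate 3. The order of the sets for GCCAT also varied with the band. From 30 to 35% GC it stood in 28.8% of members, against 24.2 and 25.4%, and at 45% or more in 31.8%, against 42.5 and 36.8%. The word of the promoter factor DREF, TATCGATA, stood in 1.52% of members and 1.84% of the set of replicate 1, with 4.46% in the set of replicate 3. The octamer, its half-site and TAATTA are AT-rich words, and no share of a whole set was corrected for base composition. Of the words in this paragraph, only TAATTA and GCCAT were read by GC band.

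**Figure D3:**
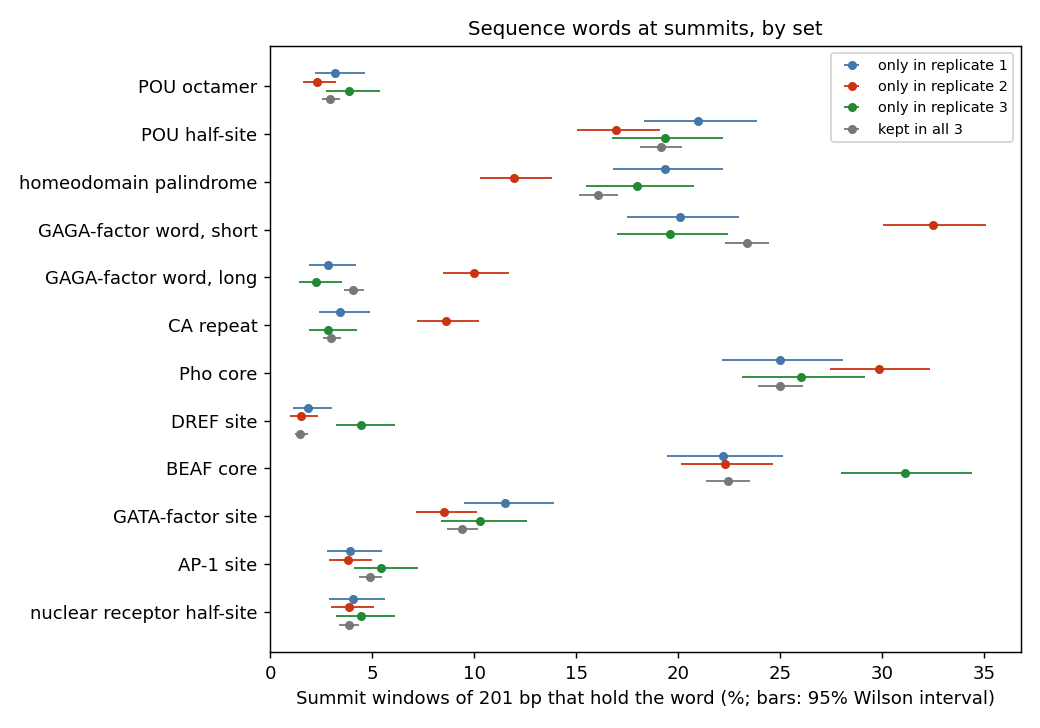
Share of summit windows (100 bp to each side) that hold each of 12 words on either strand, for peaks found only in replicate 1, 2 or 3 and for peaks kept in all 3 (rows of replicate 2); bars are 95% Wilson intervals. The set of replicate 2 stands to the right for both GAGA-factor words and the CA repeat, at 32.5, 9.97 and 8.60%, and to the left for the homeodomain palindrome, at 11.9%.

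A count of all 2080 words of 6 letters, whose leading words were named after their values were seen, gave the same composition. AGCGAG stood in 15.2% of members against 3.8 and 4.83% in the sets of replicates 1 and 3, CGCTGC in 16.4% against 6.13 and 6.20%, AGAGAG in 18.0% against 8.33 and 8.05%, and CGCCGC in 11.9% against 2.33 and 4.09%. In the other direction AAATAT stood in 33.1% of members, against 54.5 and 54.8%. Words such as CGCTGC and GCAGCA, in 18.9% of members against 9.80 and 10.4%, are GC-rich without a GA run.

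The ranks, which the rule used to choose the members, can also be described in peaks that it left out, the 5795 rows of replicate 2 kept in all 3 libraries. Over all of them the best of the 3 ranks was that of replicate 2 for 36.1% and the worst for 39.9%. Where the window had under 30% GC, replicate 2 ranked best for 27.4% and worst for 49.3%. At 45% GC or more it ranked best for 41.0% and worst for 37.1%, while the median rank there was 3290.5 in replicate 2, 3235 in replicate 1 and 3154 in replicate 3. For the 236 shared peaks with GAGAGAG replicate 2 ranked best for 47.5% and worst for 36.4%, and for the 932 with TAATTA it ranked best for 29.2% and worst for 45.7%. These shares describe the ranks and test nothing, since the ranks are what chose the members and the libraries are the same.

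By position, introns held the most members. An intron held the summit of 545 (41.5%), 447 lay within 500 bp of a start site (34.0%, 31.5 to 36.6%), 285 were intergenic (21.7%), and 17, 15 and 5 lay in a 5' UTR, a 3' UTR and a coding exon. Near start sites lay 21.9% of the set of replicate 1 and 38.3% of that of replicate 3, so the members stood between them and near the 30.9% of all kept rows of replicate 2. The median distance to a start site was 1605 bp in the members (1333 to 1888 bp), 2961 bp in replicate 1 and 1185 bp in replicate 3. The 155 members in neither other list lay near start sites in 50.3% of cases, against 78.0 and 83.3% of the matching peaks of replicates 1 and 3.

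**Figure D4:**
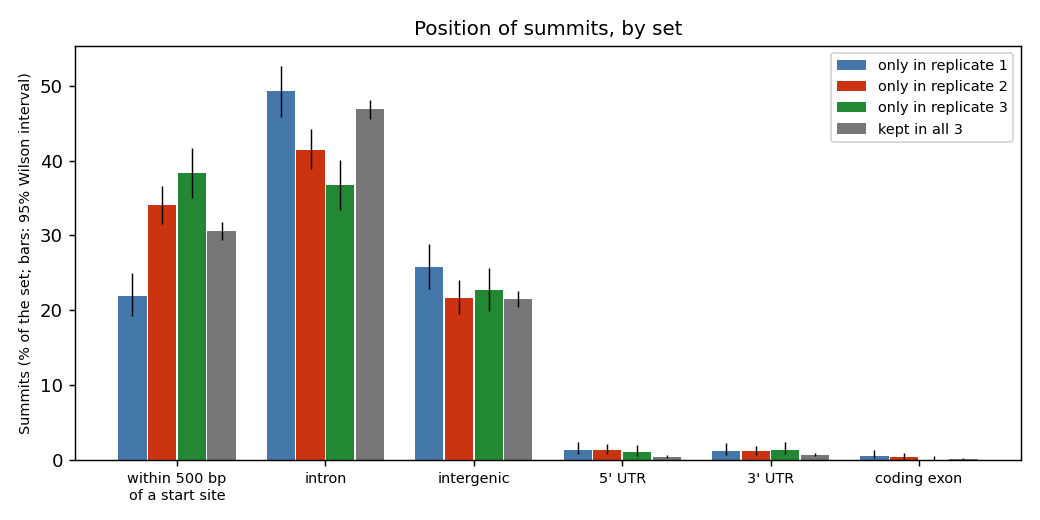
Share of summits in each class of position, in the order within 500 bp of a start site, intron, intergenic, 5' UTR, 3' UTR and coding exon, for peaks found only in replicate 1, 2 or 3 and for peaks kept in all 3; bars are 95% Wilson intervals. The set of replicate 2 lies between the other sets near start sites, at 34.0% against 21.9 and 38.3%, and in introns, at 41.5% against 49.3 and 36.7%.

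Among the arms, X held 15.1% of members, against 16.7% of the set of replicate 1, 26.9% of the set of replicate 3 and 19.1% of the kept rows of replicate 2. Arm 3R held 25.3% of members against 20.8 and 19.95%, and arm 2R 20.5% against 18.0 and 13.1%. Arm 4 held 6. The start sites of at least 2 genes lay within 1 kb of 9.74% of members, against 8.21 and 18.5%. Another kept summit of replicate 2 lay within 500 bp of 54 members (4.11%), so a few are neighbours within the same list, and merging overlapping rows left 1290 regions.

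Members were held by 970 protein-coding genes, 6.96% of the 13945, counting a summit in the gene body or within 1 kb of a start site. Peaks of the sets of replicates 1 and 3 were held by 614 (4.40%) and 777 (5.57%). Of the 970 genes, 659 held no peak of either other set, and 253 of the 1314 members were in no gene. At least 2 members were held by 190 genes, at least 3 by 61 and at least 4 by 20, against 83, 24 and 7 in replicate 1 and 67, 10 and 4 in replicate 3. Long genes held many of them: 146 of the 307 genes over 50 kb held a member (47.6%), against 104 and 81 for the other sets. Of genes of 10 to 50 kb 23.7% held a member, and of shorter genes 3.58%.

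The gene with most members was jing, a zinc-finger gene of the tracheal and nervous systems also listed with the Polycomb group genes. It held 9 members, 1 peak of the set of replicate 1 and 0 of replicate 3, and its kept peaks of any kind numbered 18 in replicate 2, 11 in replicate 1 and 9 in replicate 3. The members in jing (2R 6502006 to 6621792) ranked 2256 to 7944 in replicate 2, and all had an overlapping candidate in replicate 1, at ranks from 9704 to 25318. In replicate 3, 2 members had none. The highest pair, at ranks 2256 and 3856, overlapped each other near a start site. Both overlapped the row at rank 8165 in replicate 3, the first row past the rank limit. Other overlapping rows there ranked from 9688 to 16386. The median GC content of the members in jing was 50.7%. Next came mam, the gene of the Notch coactivator mastermind, with 8 members and 0 peaks in each of the other sets. Kept peaks in mam numbered 20 in replicate 2, 13 in replicate 1 and 11 in replicate 3. The members there ranked 4075 to 7781, and their overlapping candidates in replicate 1 ranked from 9109 to 21639. These genes thus had strong peaks in all 3 replicates and more of them in replicate 2.

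The same held at hth, a homeodomain cofactor of the Hox proteins, with 5 members against 0 and 0, and 15 kept peaks against 13 and 12. Of the insulin receptor gene InR, 6 members stood against 0 and 1 in replicates 1 and 3, and 12 kept peaks against 7 and 9. At Tet, which encodes a methylcytosine dioxygenase family enzyme, 6 members stood against 2 and 0, while kept peaks were close, 23 against 21 and 21. At kirre, an immunoglobulin-family gene of myoblast fusion, 5 members stood against 3 and 1, and the 40 kept peaks of replicate 2 compared with 38 and 40. At fz2, a Wingless receptor gene, 4 members stood against 2 and 0 with 14 kept peaks against 15 and 11. The remaining genes of the 20 with most members are Eip75B, EcR, Svil, tai, KrT95D, Egfrap, Trf2, CG31145, sli, toc, Tlk, sano and E2f1, each with 4 to 7 members.

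**Figure D5:**
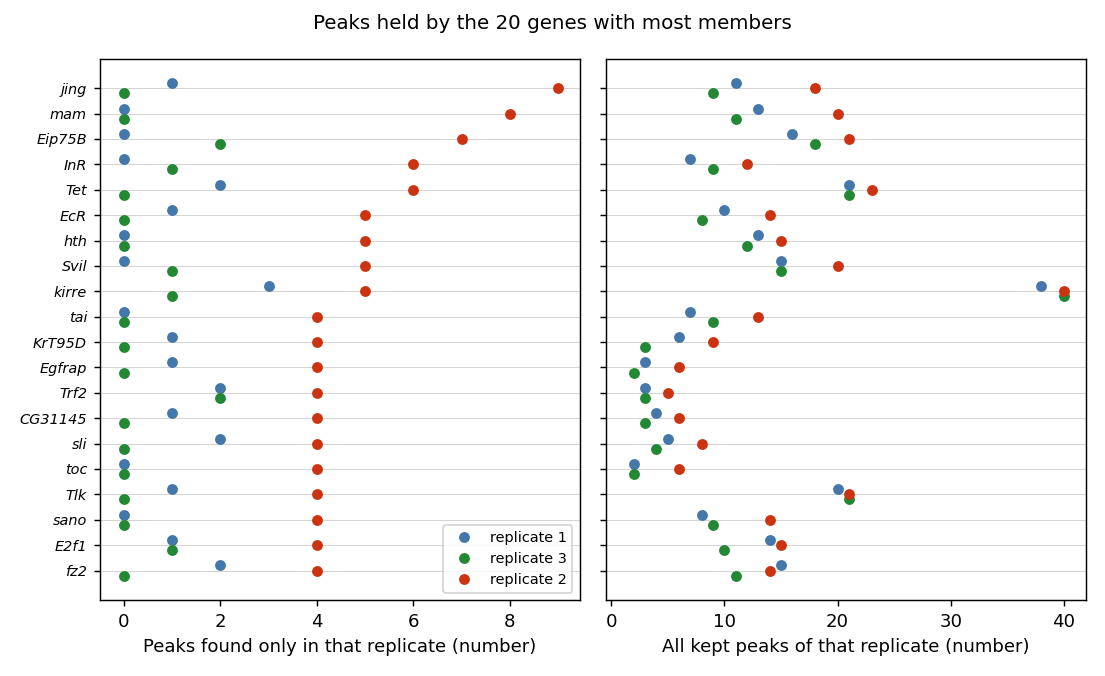
Number of peaks held by the 20 protein-coding genes with most members, in replicates 1, 2 and 3: peaks found only in that replicate (left) and all kept peaks of that replicate (right). Genes run from jing, with 9 members, to fz2, with 4; in kept peaks the replicates lie nearer to each other, as at kirre with 40 in replicate 2 against 38 and 40.

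Of the early ecdysone response regulators, the genes that carry the hormone signal of this stage, 9 of 20 held 27 members, against 7 genes and 8 peaks in replicate 1 and 6 genes and 8 peaks in replicate 3. Over all protein-coding genes 6.96% held a member. Eip75B, a nuclear receptor gene induced by ecdysone, held 7 members against 0 and 2, and kept peaks numbered 21 in replicate 2, 16 in replicate 1 and 18 in replicate 3. The members in Eip75B ranked 4843 to 7582 in replicate 2, with 2 of them absent from the list of replicate 1 and 1 from that of replicate 3. EcR, the ecdysone receptor gene, held 5 against 1 and 0, at ranks from 5243 to 6473, with 14 kept peaks against 10 and 8. Eip74EF, an ETS factor gene, held 3 against 1 and 1, and mamo, a BTB zinc-finger gene, 3 against 2 and 0. The list as a whole had near equal totals of kept peaks, 129 in replicate 2 and 123 in each of the others. Blimp-1 and E23 held none. Outside the list, tai, the gene of a coactivator of the ecdysone receptor, held 4 against 0 and 0, at ranks from 2970 to 7740. The genes of this list are long, with a median of 45299 bp against 2166 bp for all genes. A member was held by 45% of them (25.8 to 65.8%), by 47.6% of all genes over 50 kb and by 23.7% of those of 10 to 50 kb.

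Selector and imaginal disc regulators held members in 13 of 40 genes (32.5%), against 7 in replicate 1 and 3 in replicate 3. Over all protein-coding genes these shares were 6.96, 4.40 and 5.57%, and 23.7% of genes of 10 to 50 kb held a member, where the median length in this list was 14974.5 bp. After hth came bab1, a BTB gene of leg and abdomen patterning, with 2 members against 0 and 0. Dll, the homeobox gene of the distal limb, held 1, which ranked 2891 in replicate 2, 9221 in replicate 1 and 9857 in replicate 3. The member 1 kb or less from salm, a zinc-finger gene of wing patterning, ranked 3806, 8691 and 10941 in the same order. B-H1 and B-H2 held none.

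Of the Notch pathway and E(spl) genes, 6 of 17 held a member (35.3%, 17.3 to 58.7%), against 3 and 1. The gene mam is not in this list. Beside this list and the Polycomb list stand the shares over all protein-coding genes, 6.96, 4.40 and 5.57% in replicates 2, 1 and 3. Median gene lengths were 4362 bp in the Notch list and 7137 bp in the Polycomb list, against 2166 bp for all genes. mib1, the ubiquitin ligase gene that activates Notch ligands, held 2 that overlapped each other, against 0 and 0. N held 1 against 1 and 0, and numb and E(spl)mbeta-HLH held 1 each against 0 and 0. Among Polycomb group genes, 5 of 19 (26.3%, 11.8 to 48.8%) held 14 members, 9 of them in jing, against 3 genes and 3 peaks in each of the other sets. Psc held 2 that overlapped each other, at ranks 7697 and 7931. ph-d held 1, at rank 1807 with an overlapping row at rank 10774 in replicate 1 and none in replicate 3. An alternative chosen after the data were seen left out peaks with another kept summit of the same list within 500 bp. The Polycomb list then had 3 genes in each set, and the Notch list 5 in replicate 2 against 3 and 1. Asx and Caf1-55 held none.

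Axon guidance and adhesion genes, the group nearest to pdm3's known part in neurons, held 27 members in 15 of 35 genes (42.9%), against 19 peaks in 11 genes in replicate 1 and 10 peaks in 9 genes in replicate 3. Besides kirre these included sli, the midline repellent, with 4 members against 2 and 0, hbs, an immunoglobulin-family gene, with 3 against 0 and 0, and the netrin gene NetB with 3 against 2 and 0. The share over all protein-coding genes was 6.96%, but the median length in this list was 40112 bp, and 47.6% of all genes over 50 kb and 23.7% of those of 10 to 50 kb held a member. Kept peaks in the list were 136 in replicate 2, 132 in replicate 1 and 135 in replicate 3. Secreted signals and their feedback genes held members in 9 of 25 genes against 7 and 5, with 3 in dpp, the BMP ligand gene, against 1 and 0. Neural fate regulators held members in 3 of 26 genes against 0 and 2, with 3 members in lola against 0 and 0. Neuronal excitability and synapse genes held members in 2 of 30, against 2 and 1.

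Tracheal and epithelial regulators had 5 of 19 genes in both replicates 2 and 1 and 3 in replicate 3, with 3 members in ush, a GATA cofactor gene. These genes held 11 peaks of the set of replicate 1, 7 of replicate 2 and 3 of replicate 3, and at equal number of peaks the genes were 5 in replicate 1 and 3 in each of the others. Cell cycle regulators had 4 of 23 against 3 and 1, with 4 members in E2f1 against 1 and 1. Fat body and lipid genes had 3 of 19 against 2 and 3, with InR the leading gene. Cytosolic ribosomal protein genes had 7 of 85 (8.24%, 4.05 to 16.0%) against 2 and 5, with RpS3 holding 2 members. This is near the 6.96% of all protein-coding genes that held a member. That share, with 4.40 and 5.57% for replicates 1 and 3, stands beside every list of this paragraph. Muscle structure genes had 2 of 24 against 0 and 0, heat shock genes 1 of 17 against 0 and 0, and Hox genes 1 of 8 against 2 and 0. Cuticle protein genes had 1 of 96 against 2 and 3, chemoreceptor genes 1 of 179 against 1 and 3, and segmentation genes 0 of 21 against 1 and 0. The list named salivary glue genes, which also includes Eig71Ea and Eig71Eb, had 0 of 15 in every set.

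The set of replicate 2 is larger, and this bears on the counts of genes. With the 807 highest peaks taken from each set, an alternative chosen after the data were seen, the ecdysone list had 8 genes in replicate 2 against 7 and 6, the selector list 8 against 7 and 3, the Notch list 4 against 3 and 1, the axon guidance list 10 against 11 and 9, and the secreted signals list 5 against 7 and 5. All protein-coding genes then numbered 675 against 611 and 777. The order of the replicates in the axon guidance and secreted signals lists therefore turned with the number of peaks. Over 7 alternatives of the rule, replicate 2 had the most genes in all 7 for the ecdysone, selector, Notch and POU lists, in 6 for the secreted signals, ribosomal protein and heat shock lists, and in 5 for the axon guidance, Polycomb, neural fate, muscle and cell cycle lists. It had the most in 3 for the fat body list, in 2 for the tracheal, segmentation and neuronal excitability lists, in 1 for the Hox, chemoreceptor and salivary glue lists and in 0 for the cuticle list. Except at equal number, the set of replicate 2 stayed the largest in these alternatives, so this tally cannot be told apart from set size.

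The pdm3 gene itself (2R 8327490 to 8396280) held 3 members, all in introns, against 0 in replicate 1 and 2 in replicate 3. They ranked 5154, 6320 and 7564 in replicate 2, and 9630, 19866 and 8856 in replicate 3. In replicate 1 only the last had a candidate, at rank 15439. Kept peaks in pdm3 numbered 10 in replicate 2, 6 in replicate 1 and 8 in replicate 3. Of the other POU genes, nub held 1 member against 2 and 0, and pdm2, vvl and acj6 held no kept peak in any replicate.

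Of the 807 highest members, 25.2% (22.3 to 28.3%) lay within 10 kb of another, against 20.6 and 20.8% in the sets of replicates 1 and 3, and these intervals overlap. Over all 1314 the share was 33.7%. Of the bins of 100 kb, the one from 6500001 on 2R held most, the 9 members in jing, against 1 and 0. The bin from 5000001 on 3R, which includes corto, held 8 against 3 and 2. Next came the bin from 5900001 on 3L, with 7 against 1 and 0, 4 of them in Egfrap, and the bin from 21600001 on 3R, with 7 against 1 and 1 in E2f1 and InR. Tied after these with 6 members were the bins from 2800001 on 2L, from 14000001 and 15000001 on 2R, and from 7100001 on 3L.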

How the data were processed

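Peak lists from ChIP-seq of 3 biological replicates of pdm3-GFP white prepupae were used. Per the labels' readme, the 30000 candidates of a replicate derive from its own alignments together with 1 control file, and the optimal list from the candidate lists of the replicates and of the pooled data. The lists are in narrowPeak format on dm6. The signal values were used as deposited by the authors, with a normalization not given in the sources used here, and served to rank the rows of each list. The deposited −log10 q-value chose no peak. The aligner and the peak caller were not given in the sources used here.

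Rows were ranked by signal value, 8164 (the length of the optimal list) were kept per list, and overlaps of 1 bp counted. Coordinates are dm6, counted from 1. Genes came from Ensembl release 115 (13945 protein-coding genes, 19607 start sites on 6 arms) and sequence from RefSeq, and all peaks of the replicates ended within their arm. A summit within 500 bp of a start site counted as near it, and other summits were classed as UTR, coding exon, intron or intergenic, in that order except that a coding exon went before a 3' UTR. Motifs and GC content were read in 201 bp around summits. Each replicate has 1 list, so shares are set side by side with 95% Wilson intervals and no test was run. Neighbouring or overlapping peaks are counted singly, so these intervals are too narrow where peaks share sequence. Depth is unknown, so no limit was derived from it.

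The members, the 20 gene lists and the 18 motifs were chosen with earlier results of these data known. Named are the 10 highest members, the 20 genes with most members, up to 4 genes with and 2 without members per list, the bins with most members, the POU genes and the rows beside the rank limit. Genes beside the printed sequences were named because their windows lead the members with each word. Of the list symbols, 10 were not in the annotation. The rule was tested on simulated lists. Python 3.11.15, numpy 2.4.6, pandas 2.3.3 and matplotlib 3.10.9 were used.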

Additional observations from a re-analysis of the deposited data

How the results depend on the processing

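Of 103 recomputed values 70 stayed within their intervals or within 1.5 times the main count. The members numbered 543 with 4000 rows kept and 2119 with 12000, and 807 at equal number by construction. Leaving out replicate 1 or 3 gave 1840 to 1843 members, a median GC content of 39.3 to 39.8%, GAGAGAG in 8.42 to 8.90%, optimal overlap of 35.2 to 35.5%, no candidate elsewhere in 8.41 to 8.42% and start sites within 500 bp in 30.8 to 34.2%. Without replicate 2 there are no members. With 4000 rows the median GC content was 37.3%, optimal overlap 82.0%, no candidate elsewhere 5.89% and genes holding a member 456. With 12000 rows these were 42.3%, 0.566%, 24.9%, with 27.8% near start sites, 44.4% in introns and 24.7% intergenic. With 50% coverage 36.3% overlapped an optimal peak and 8.81% had no candidate elsewhere. Within 1000 bp of a start site lay 42.7%. Among members in neither other list, chosen after the data were seen, the median GC content was 42.3%, 50.3% lay near start sites, 34.8% in introns and 9.68% were intergenic, 2.58% overlapped an optimal peak, and 186 genes held one. The 807 highest, also chosen afterwards, had 38.4% near start sites, 37.7% in introns, 24.5% optimal overlap and 13.8% with no candidate elsewhere. The causes of these shifts were not tested. In the settings run for all 3 sets, those of replicates 1 and 3 had median GC contents below that of replicate 2. No paired analysis was possible because there is 1 group. Depth is unknown.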
